A study of Homo sapiens with 10 samples.

Results

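MARCHF3 and 6 further MARCHF genes, MARCHF2, MARCHF5, MARCHF6, MARCHF7, MARCHF8 and MARCHF9, were followed across SRp55 siRNA and control siRNA libraries of EndoC-βH1 cells. They are 7 of the 26346 genes in the deposited files and were matched by Ensembl ID. MARCHF3 was chosen for its higher RPKM sum after SRp55 siRNA in these same libraries, so its values are given as a description with no test. The other 6 were taken as members of the same gene family. All 7 passed the filter on low values, a mean of at least 0.5 RPKM, where RPKM is a read number scaled by transcript length and library depth, summed here over a gene's transcripts.

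EndoC-βH1 is a human beta cell line that makes insulin, and it is 1 clonal line. In 5 libraries the cells had received SRp55 siRNA, the single siRNA named siSR#2, which targets the mRNA of SRSF6 and so the splicing factor SRp55, and in the other 5 a control siRNA. Both groups were grown on matrigel and fibronectin, and the series describes the 5 preparations of each group as independent. PolyA RNA was sequenced on an Illumina HiSeq system.

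MARCHF proteins are ubiquitin ligases that carry a RING-CH domain, a zinc-binding fold that recruits a ubiquitin-conjugating (E2) enzyme. Most of them are anchored in membranes by transmembrane segments and attach ubiquitin to other membrane proteins, which are then sorted to lysosomes or pulled out for proteasomal degradation. MARCHF2, MARCHF3, MARCHF8 and MARCHF9 act at the cell surface and on endosomes, MARCHF5 in the outer mitochondrial membrane, and MARCHF6 in the endoplasmic reticulum. MARCHF7, also called axotrophin, has a RING-CH domain but no predicted transmembrane segment, so the word membrane does not describe it well.

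The siRNA target was low in every library that received its siRNA. SRSF6 averaged 24.9 ± 3.78 RPKM in SRp55 siRNA libraries and 98.2 ± 3.24 RPKM in control libraries (SD, n = 5). Assigned reads came to between 94.7 and 189.8 M (where M is 10 to the power 6) per SRp55 siRNA library and between 61.9 and 159.2 M per control library. All 10 beta cell markers examined were at a mean of at least 0.5 RPKM, with INS at 7930 to 11334 RPKM in SRp55 siRNA libraries and 4237 to 12706 RPKM in control libraries. Among markers of other cells, PPY, PRSS1 and CELA3A were at 0 in every library. KRT19, a duct marker, was at 22.1 to 58.4 RPKM after SRp55 siRNA and 18.7 to 30.1 RPKM in controls, and CPA1, an acinar enzyme, and CD68, a macrophage marker, averaged 21.5 and 41.2 RPKM over all libraries. SST, the delta cell hormone, was at 41.6 to 189 RPKM after SRp55 siRNA and 53.2 to 240.3 RPKM in controls. In bulk RNA, fewer cells of a type and less RNA per cell cannot be told apart. In all, 684 of 13630 tested genes were called, 513 higher and 171 lower (limma, a linear model whose variances are moderated across genes, adjusted p under 0.05). With libraries centred by median-of-ratios scaling, 412 (3.02%) were called higher and 507 lower, 6.74% in all.

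The change in MARCHF3 lay in a transcript that stops inside an intron, so its sequences come first. The gene (ENSG00000173926.5) runs on the minus strand of chromosome 5 from 126203406 to 126366500 in the files (GRCh37), and the files list 5 transcripts for it. By GENCODE 44 (GRCh38), the full-length coding transcript ENST00000308660 has 5 exons and 253 codons. The short coding transcript ENST00000515241 has 2 exons, which match exons 2 and 3 of the full-length one with 1 base more at the start, and then runs on into intron 3. It keeps the first 269 bases of that 36535-base intron, which begins with GT as introns do. Both transcripts share their first 131 codons. After these the short transcript reads 7 codons from the intron and meets a stop, for 138 codons in all, and 245 bases follow that stop.

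The next lines show where both transcripts part, 5′ to 3′ on the minus strand of chromosome 5 (GRCh38). The lower case bases are the end of exon 3 in both. The capitals are intron 3 up to and including the stop codon in the short transcript (chr5:126914906-126914959), and the first bases of exon 4 in the full-length one, whose parts lie at chr5:126914930-126914959 and chr5:126878365-126878394.
ENST00000515241: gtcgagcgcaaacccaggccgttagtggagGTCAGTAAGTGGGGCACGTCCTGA
ENST00000308660: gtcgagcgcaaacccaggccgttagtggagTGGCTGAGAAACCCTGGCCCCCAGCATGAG

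The RING-CH domain is kept in both. A pattern of 8 zinc ligands in the order C4HC3, 7 cysteines and 1 histidine, was found at codons 71 to 116 of both transcripts, and all 138 bases of it lie on exon 3, before the point where they part. The stretch is shown because the short transcript keeps it whole (chr5:126914975-126915112, minus strand, GRCh38), with the codons of the 8 ligands in capitals.
MARCHF3 RING-CH: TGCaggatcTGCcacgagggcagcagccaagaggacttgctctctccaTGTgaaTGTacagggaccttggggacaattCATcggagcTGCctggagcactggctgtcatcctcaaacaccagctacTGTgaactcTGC

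The transmembrane segments of MARCHF3 lie after the RING-CH domain in the protein, on the side that the short transcript does not encode. Whether the short transcript is translated was not measured.

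**Figure D1:**
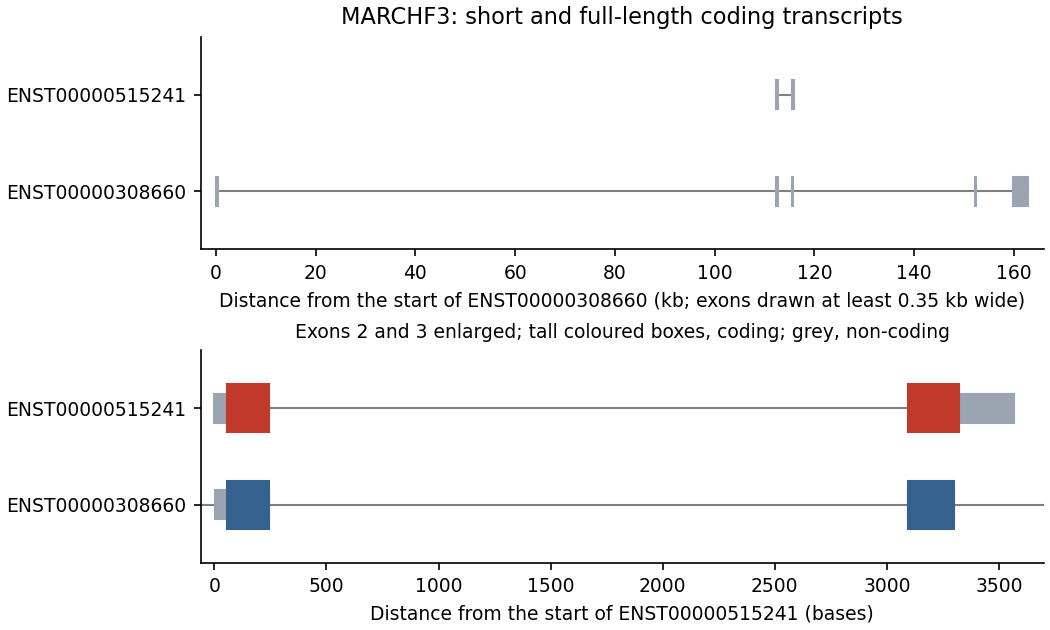
Exon maps of the short (ENST00000515241) and full-length (ENST00000308660) coding transcripts of MARCHF3 from GENCODE 44, drawn 5′ to 3′ with distance from the transcript start in kb (top) or bases (bottom). The short transcript holds exons 2 and 3 of the full-length one and runs 269 bases further into intron 3, where its coding part (tall box) ends after 7 codons.

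MARCHF3 had the largest ratio of group means among the 7 genes. Its gene sum was 11.2, 13.1, 9.93, 10.7 and 10.6 RPKM in SRp55 siRNA replicates 1 to 5, against 1.16, 2.12, 1.42, 4.19 and 0.876 RPKM in control replicates 1 to 5. Every SRp55 siRNA library was above every control library, and control replicate 4 was the highest control. The means were 11.1 ± 1.22 RPKM after SRp55 siRNA and 1.95 ± 1.33 RPKM in controls (SD, n = 5), a ratio of 5.69. On the scale of log2(RPKM + 0.5), and relative to the median tested gene, the difference was 2.27 (SE 0.28), and 2.50 without control replicate 4. Of all tested genes 5.61% had every SRp55 siRNA library above every control library. Since MARCHF3 was chosen on this contrast, nothing is read from its place among them.

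The short transcript held nearly all of that difference. ENST00000515241 (719 bases) was at 9.79, 10.4, 8.37, 7.93 and 9.90 RPKM in SRp55 siRNA replicates 1 to 5, against 0.377, 0.0910, 0, 1.01 and 0.0103 RPKM in control replicates 1 to 5. It was thus listed at 0 in control replicate 3, while no SRp55 siRNA library was below 7.93 RPKM. Behind these values stood 859, 1052, 662, 1197 and 1084 estimated reads in SRp55 siRNA libraries and 31.9, 5.20, 0, 127 and 1.35 in control libraries. The means were 9.28 ± 1.06 RPKM after SRp55 siRNA and 0.298 ± 0.426 RPKM in controls (SD, n = 5), and this transcript made up 98.1% of the difference between the MARCHF3 means. Relative to the median tested transcript its log2 fold change was 3.63, as a description of the values that chose the gene. It passed the filter of 0.5 RPKM only through its SRp55 siRNA libraries.

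The full-length transcript was lower, not higher, in every SRp55 siRNA library. ENST00000308660 (4196 bases) was at 0.400, 0.289, 0.387, 0.315 and 0.292 RPKM after SRp55 siRNA, against 0.595, 0.624, 0.545, 0.440 and 0.853 RPKM in controls. The groups did not overlap, with means of 0.337 ± 0.0532 and 0.612 ± 0.152 RPKM in SRp55 siRNA and control libraries (SD, n = 5), and the ratio was 0.551. Its overall mean was under the 0.5 RPKM filter, so it did not enter the transcript fit. In estimated reads per M assigned reads it was at 1.62 ± 0.192 after SRp55 siRNA and 3.19 ± 1.03 in controls, again with no overlap. The share of all transcripts without overlap was not counted.

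The other 3 MARCHF3 transcripts overlapped between groups. ENST00000506088, which GENCODE 44 annotates as a retained intron and which covers exon 4 and part of exon 5, was at 1.42 ± 0.895 RPKM after SRp55 siRNA and 0.779 ± 0.884 RPKM in controls. It reached 2.10 RPKM in control replicate 4 and was at 0 in control replicate 5. ENST00000502289 and ENST00000504239, which have no defined coding sequence, stayed at or under 0.524 RPKM in every library.

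**Figure D2:**
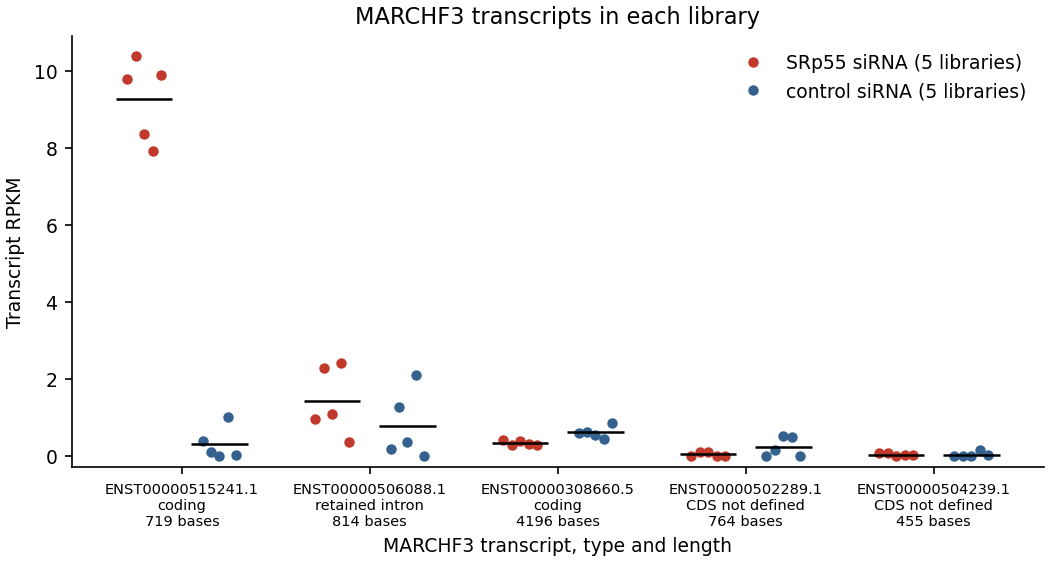
RPKM of the 5 MARCHF3 transcripts in each library, with SRp55 siRNA left of control siRNA and a bar at each mean of 5 libraries. ENST00000515241 is at 7.93 to 10.4 RPKM after SRp55 siRNA and at or under 1.01 RPKM in controls, while the full-length ENST00000308660 is lower after SRp55 siRNA.

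As a share of the gene, the short transcript led after SRp55 siRNA, and the full-length one had the highest mean share in controls. Usage, a transcript's percent of its gene's RPKM sum, was 83.7% ± 7.47 for ENST00000515241 after SRp55 siRNA and 12.4% ± 14.9 in controls, and 3.07% ± 0.669 and 45.4% ± 32.7 for the full-length transcript in SRp55 siRNA and control libraries (SD, n = 5). Control libraries varied widely among themselves, from 0% in replicate 3 to 32.6% in replicate 1 for the short transcript and from 10.5% in replicate 4 to 97.5% in replicate 5 for the full-length one. The shift of 71.3 percentage points for the short transcript is a description of the values that chose the gene. MARCHF3 entered the usage fit with 2 transcripts, ENST00000515241 and ENST00000506088. The full-length one was under the filter of 0.5 RPKM and did not enter it. Transcripts with the RING-CH pattern made up 86.8% ± 7.64 of MARCHF3 RPKM after SRp55 siRNA and 57.9% ± 31.0 in controls.

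A short transcript weighs more in RPKM than in reads. Counted as estimated reads per M assigned reads, MARCHF3 was at 10.7 after SRp55 siRNA and 4.40 in controls, and its log2 difference was 1.22 on that scale, against 2.27 on RPKM. In reads the short transcript made up 71.9% ± 6.95 of MARCHF3 after SRp55 siRNA and 5.32% ± 6.79 in controls, and the full-length one 15.4% ± 2.97 and 73.9% ± 22.6 (SD, n = 5). On RPKM, the gene without its short transcript had a log2 difference of 0.022, and the full-length transcript alone -0.51. On reads, the gene without its short transcript was lower, at 2.99 ± 0.737 per M after SRp55 siRNA and 4.16 ± 0.779 per M in controls (SD, n = 5), with overlapping groups. The files list transcripts and not exons or junctions, and reads on exons 2 and 3 fit both transcripts, so how these reads were divided was the work of the authors' program, whose part in the result was not tested. No other gene in the files overlaps MARCHF3.

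Both coding transcripts of MARCHF3 have a polyadenylation hexamer near their end. AATAAA begins 22 bases from the end of ENST00000515241 and 25 bases from the end of ENST00000308660. Over the last 50 bases, on the transcript strand, AATAAA or ATTAAA was found in 2 of 5 MARCHF3 transcripts and in 35.6% of 252735 GENCODE 44 transcripts. A match describes the letters and is not a measured cleavage site.

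The other 6 MARCHF genes were closer between groups. Of these 6, MARCHF5 was called higher, none was called lower and 5 were not called, where 5.02% of all tested genes were called in either direction and 3.76% higher. None of the 6 had groups without overlap.

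**Figure D3:**
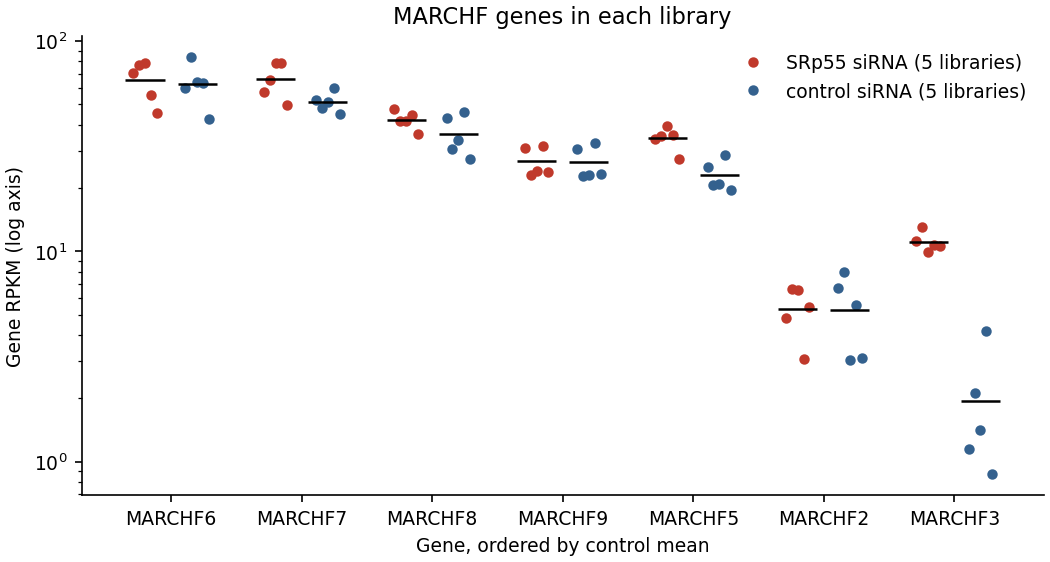
Gene RPKM (log axis) of the 7 MARCHF genes in each library, with SRp55 siRNA left of control siRNA and a bar at each mean of 5 libraries. MARCHF3 is at 9.93 to 13.1 RPKM after SRp55 siRNA and 0.876 to 4.19 RPKM in controls, and the groups of every other gene overlap.

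Among the ligases of the cell surface and endosomes, none was called. MARCHF8, which in human cells removes transferrin receptor and immune surface proteins, was at 47.7, 41.5, 41.8, 44.4 and 36.1 RPKM in SRp55 siRNA replicates 1 to 5, against 43.2, 30.8, 33.8, 45.8 and 27.3 RPKM in control replicates 1 to 5. The lowest SRp55 siRNA library was above 3 controls and under the other 2, with a log2 fold change of 0.14 (SE 0.15; limma, adjusted p = 0.39). Its main transcript, ENST00000453424, which encodes the RING-CH domain, held 54.1% of the gene after SRp55 siRNA and 58.8% in controls.

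MARCHF9, which acts on surface proteins such as MHC class I, did not differ beyond its spread. It was at 31.1, 23.0, 24.2, 31.6 and 23.8 RPKM in SRp55 siRNA replicates 1 to 5, against 30.7, 22.8, 23.2, 32.6 and 23.3 RPKM in control replicates 1 to 5. Replicates 1 and 4 were the high libraries in both groups. Its log2 fold change, -0.09 with an SE of 0.15, was not called (limma adjusted p = 0.96). Most of its RPKM lay in ENST00000548358, whose coding sequence lacks the RING-CH pattern, at 70.5% after SRp55 siRNA and 74.1% in controls. The transcript with the pattern, ENST00000266643, held 17.4% in each group. MARCHF9 overlaps CDK4, a cell cycle kinase gene on the other strand, which averaged 169 RPKM after SRp55 siRNA and 136 RPKM in controls. In the files CDK4 ends at 58149796, inside the spans of ENST00000266643 and ENST00000552279, a retained intron transcript. ENST00000548358 starts past it, at 58151270. The use of strand is not given in the sources used here. The levels of ENST00000266643 and ENST00000552279, and the MARCHF9 sum that holds them, are therefore less certain.

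MARCHF2, the closest relative of MARCHF3, was low and uneven between libraries. It was at 4.83, 6.61, 6.55, 3.07 and 5.43 RPKM in SRp55 siRNA replicates 1 to 5, against 6.73, 7.94, 3.06, 5.55 and 3.11 RPKM in control replicates 1 to 5. It was not called at a log2 fold change of -0.06 with an SE of 0.28 (limma adjusted p = 0.94). Few estimated reads lay behind these values, 618 to 926 after SRp55 siRNA and 470 to 941 in controls. Usage of its transcripts moved by up to 17.9 percentage points, for ENST00000601724, which was not called and rests on 1 control library at 5.97 RPKM. Usage in MARCHF2 was not called (limma adjusted p = 0.97), which does not show that it was alike.

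MARCHF5, the ligase of the outer mitochondrial membrane that acts on proteins of mitochondrial fission and fusion, was called higher. It was at 34.0, 35.2, 39.5, 35.7 and 27.5 RPKM in SRp55 siRNA replicates 1 to 5, against 25.3, 20.7, 21.0, 28.6 and 19.5 RPKM in control replicates 1 to 5. SRp55 siRNA replicate 5 lay under control replicate 4, and the SRp55 siRNA library was higher in 5 of 5 pairs of equal number. The means were 34.4 ± 4.33 and 23.0 ± 3.80 RPKM in SRp55 siRNA and control libraries (SD, n = 5), which is a log2 fold change of 0.47 with an SE of 0.14 (limma adjusted p = 0.037). The adjusted p was 0.016 with median-of-ratios scaling and 0.0042 on estimated reads. The call was lost without any 1 of SRp55 siRNA replicates 1, 2, 3 and 4 or control replicates 1, 2, 3 and 5, at adjusted p of 0.059 to 0.094. It held without SRp55 siRNA replicate 5 or control replicate 4.

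In RPKM, most of the MARCHF5 difference lay outside its coding transcript. ENST00000467521, 749 bases with no defined coding sequence, was at 20.2 ± 3.71 RPKM after SRp55 siRNA and 11.6 ± 3.18 RPKM in controls (limma adjusted p = 0.26). The coding transcript ENST00000358935, with 278 codons and the RING-CH pattern, was at 11.8, 11.3, 11.1, 11.6 and 9.82 RPKM in SRp55 siRNA replicates 1 to 5, against 9.34, 9.33, 8.84, 8.97 and 8.43 RPKM in control replicates 1 to 5. The groups did not overlap, and it was not called (log2 fold change 0.18 relative to the median tested transcript, limma adjusted p = 0.45). In estimated reads per M assigned reads, the coding transcript held 7.12 of the gene's difference of 14.3. The gene's groups did not overlap on that scale, for which the share of all tested genes was not counted. With protein-coding transcripts only, MARCHF5 had a log2 fold change of 0.21 and was not called (limma adjusted p = 0.066).

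MARCHF6, a ligase of the endoplasmic reticulum that degrades membrane proteins and enzymes of cholesterol synthesis, showed no called difference. It was at 70.3, 76.9, 78.9, 55.5 and 45.6 RPKM in SRp55 siRNA replicates 1 to 5, against 59.9, 83.8, 63.6, 63.3 and 42.4 RPKM in control replicates 1 to 5. Replicate 5 was lowest in both groups. The log2 fold change of -0.04 had an SE of 0.20 (limma adjusted p = 0.88). Its RPKM was spread over many transcripts, of which 8 of 14 had a mean of at least 0.5 RPKM, and those with the RING-CH pattern held 45.0% ± 5.62 after SRp55 siRNA and 47.8% ± 4.42 in controls.

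MARCHF7 was higher in 5 of 5 pairs of equal number without being called. It was at 57.4, 64.9, 78.7, 78.6 and 49.4 RPKM in SRp55 siRNA replicates 1 to 5, against 52.2, 48.2, 51.0, 59.7 and 45.0 RPKM in control replicates 1 to 5. SRp55 siRNA replicates 3 and 4 stood above all other libraries. The log2 fold change of 0.23 had an SE of 0.15 (limma adjusted p = 0.20). ENST00000420397 did not overlap between groups, at 9.11 ± 1.33 RPKM after SRp55 siRNA and 5.67 ± 0.926 RPKM in controls. It was not called (limma adjusted p = 0.25). Its annotated coding sequence is incomplete, and the RING-CH pattern was not found in the 124 codons given.

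No transcript of these 6 genes was called. Of their 32 tested transcripts 0 passed, with 5 at an unadjusted p under 0.05 by limma, where 0.083% of all tested transcripts were called in either direction and 0.045% higher. The count was also 0 on estimated reads, with median-of-ratios scaling and with the replicate number as a block, where 4, 4 and 7 transcripts had an unadjusted p under 0.05. Few transcripts were called at all, so this count says little about the family. ENST00000358935 of MARCHF5 and ENST00000420397 of MARCHF7 had groups without overlap. The share of all tested transcripts without overlap was not counted, so nothing is read from these cases. For usage 0 of the 6 genes were called, with 1 at an unadjusted p under 0.05, where 0.343% of all genes tested for usage were called. Their adjusted p ran from 0.55 to 1.00, and the largest shift per gene from 3.60 points in MARCHF9 to 17.9 points in MARCHF2.

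The order of the 7 genes by RPKM, which is per length, differed between groups at 3 places. After SRp55 siRNA the order by mean was MARCHF7, MARCHF6, MARCHF8, MARCHF5, MARCHF9, MARCHF3 and MARCHF2, and in controls it was MARCHF6, MARCHF7, MARCHF8, MARCHF9, MARCHF5, MARCHF2 and MARCHF3. Ranges of neighbours overlapped except between MARCHF9 and MARCHF3 and between MARCHF3 and MARCHF2 after SRp55 siRNA, and between MARCHF5 and MARCHF2 in controls. Within libraries, MARCHF5 was above MARCHF9 in 5 of 5 after SRp55 siRNA, and MARCHF9 above MARCHF5 in 5 of 5 controls. Of the summed RPKM of the 7 genes, MARCHF3 made up 4.48% ± 0.709 after SRp55 siRNA and 0.904% ± 0.506 in controls, while MARCHF6 and MARCHF7 together led in both groups.

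The other 4 MARCHF genes were low. MARCHF4, a ligase of the Golgi, averaged 2.20 RPKM after SRp55 siRNA and 2.19 RPKM in controls (limma adjusted p = 1.00). MARCHF1, MARCHF10 and MARCHF11 had overall means of 0.210, 0.0978 and 0.0501 RPKM and were not tested.

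Genes that work with these ligases mostly did not pass the test. Ubiquitin-activating (E1) and conjugating (E2) enzymes had 1 of 29 tested genes called higher and none lower, near the 3.76% of all tested genes called higher. Their median log2 fold change was 0.10, where the median tested gene is at 0 by construction. The 1 was UBE2C, the E2 of the anaphase-promoting complex in mitosis, at 133 ± 19.3 RPKM after SRp55 siRNA and 77.0 ± 29.8 RPKM in controls (SD, n = 5), a log2 fold change of 0.73 (limma adjusted p = 0.044). With the replicate block 4 of these enzymes were called higher, against 9.39% of all tested genes higher and 13.1% in either direction.

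Among 33 other transmembrane RING ligases 2 were called higher and 1 lower, against 3.76% of all tested genes called higher and 5.02% in either direction, with a median of -0.06. RNF139, which degrades sterol-regulated proteins in the endoplasmic reticulum, fell to 12.8 ± 2.01 RPKM after SRp55 siRNA, against 19.0 ± 1.40 RPKM in controls (log2 fold change -0.67, limma adjusted p = 0.029). RNF144A, an RBR-type ligase, and RNFT1, a RING protein with transmembrane segments, were called higher at log2 fold changes of 0.27 and 0.30 (limma adjusted p = 0.046 and 0.047). Median-of-ratios scaling left neither called, at an adjusted p of 0.11 for each.

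Of 20 tested genes of endoplasmic reticulum-associated degradation, EDEM1 was called higher, EDEM3 lower and 18 were not called, against 5.02% of all tested genes called. Both encode proteins of mannose trimming, and the list's median was -0.12. EDEM3 was at 11.3 ± 1.89 RPKM after SRp55 siRNA and 15.9 ± 0.992 RPKM in controls (log2 fold change -0.60, limma adjusted p = 0.047), and EDEM1 at 9.19 ± 1.10 and 6.13 ± 0.556 RPKM in SRp55 siRNA and control libraries (0.44, limma adjusted p = 0.020; SD, n = 5).

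Of 16 mitochondrial genes chosen around MARCHF5, which act in fission, fusion and apoptosis at the outer membrane, 1 was called higher and 2 lower, against 5.02% of all tested genes called, with a median of -0.07. MFN1, a mitofusin that joins outer membranes, was at 9.68, 14.0, 14.2, 13.8 and 9.78 RPKM in SRp55 siRNA replicates 1 to 5, against 20.2, 20.2, 19.2, 23.5 and 16.6 RPKM in control replicates 1 to 5. Every SRp55 siRNA library was under every control, a log2 fold change of -0.79 with an SE of 0.15 (limma adjusted p = 0.026). The share of all tested genes with every SRp55 siRNA library under every control was not counted, so nothing is read from that separation. GDAP1, an outer membrane protein of mitochondrial fission, fell to 12.7 ± 2.15 RPKM, against 21.6 ± 1.34 RPKM in controls (log2 fold change -0.86, limma adjusted p = 0.0080). PMAIP1, the pro-apoptotic protein NOXA, was called higher at 0.60 (limma adjusted p = 0.042), with SRp55 siRNA replicate 1 at 119 RPKM and the other 4 at 61.1 to 80.02 RPKM, against 42.7 to 50.3 RPKM in controls.

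Of 16 tested genes reported as surface or endosomal cargo of MARCHF ligases, 1 was called lower and none higher, near the 5.02% of all tested genes called, with a median of 0.10. It was IL6ST, the gp130 receptor chain that MARCHF3 has been reported to ubiquitinate, at 1.59, 1.87, 2.00, 2.33 and 1.24 RPKM in SRp55 siRNA replicates 1 to 5, against 2.45, 3.03, 3.40, 3.23 and 3.70 RPKM in control replicates 1 to 5. The groups did not overlap (log2 fold change -0.78, SE 0.15, limma adjusted p = 0.029). Since the share of all tested genes without overlap in this direction was not counted, nothing is read from that. Of the 16 genes, 12 were above the median tested gene. Among other cytokine receptor chains, IL1RAP (0.67, limma adjusted p = 0.066), IL1R1 (0.44) and IL6R (0.22) were above it and IFNGR1 was at -0.05, none called. With the replicate block 3 of the 16 were called higher and 1 lower, against 9.39% of all tested genes higher and 13.1% in either direction. None of 25 ESCRT genes, which sort ubiquitinated membrane proteins into multivesicular endosomes, was called by limma, with 4 at an unadjusted p under 0.05 and 1 called higher with the replicate block, where 9.39% of all tested genes were. The lists held 29, 33, 20, 16, 16 and 25 tested genes, and the neighbours of MARCHF3 given below 6. Over all of these lists, 5 genes were called higher and 5 lower. Of all tested genes 3.76% were called higher and 5.02% in either direction. With the replicate block the counts were 17 and 8, where 9.39% of all tested genes were called higher and 13.1% in either direction. Under median-of-ratios scaling 4 were called higher and 8 lower, against 3.02% of all tested genes higher and 6.74% in either direction.

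Most of these list calls were lost when some 1 library was left out. GDAP1 stayed called whichever library was left out. MFN1 lost its call without control replicate 1, 2 or 3, and EDEM1 without SRp55 siRNA replicate 2 or 3 or control replicate 3 or 5. RNF139 lost its call without SRp55 siRNA replicate 1 or 2 or control replicate 1, 2 or 3. IL6ST lost its call without SRp55 siRNA replicate 1, 2 or 3 or control replicate 2, 3 or 5. PMAIP1 lost it in 7 of 10 cases, all except SRp55 siRNA replicates 1 and 5 and control replicate 4. UBE2C, RNF144A and RNFT1 lost theirs in 8 of 10, all except SRp55 siRNA replicate 5 and control replicate 4, and EDEM3 in 9 of 10, all except SRp55 siRNA replicate 5. The adjusted p in these cases reached at most 0.12.

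**Figure D4:**
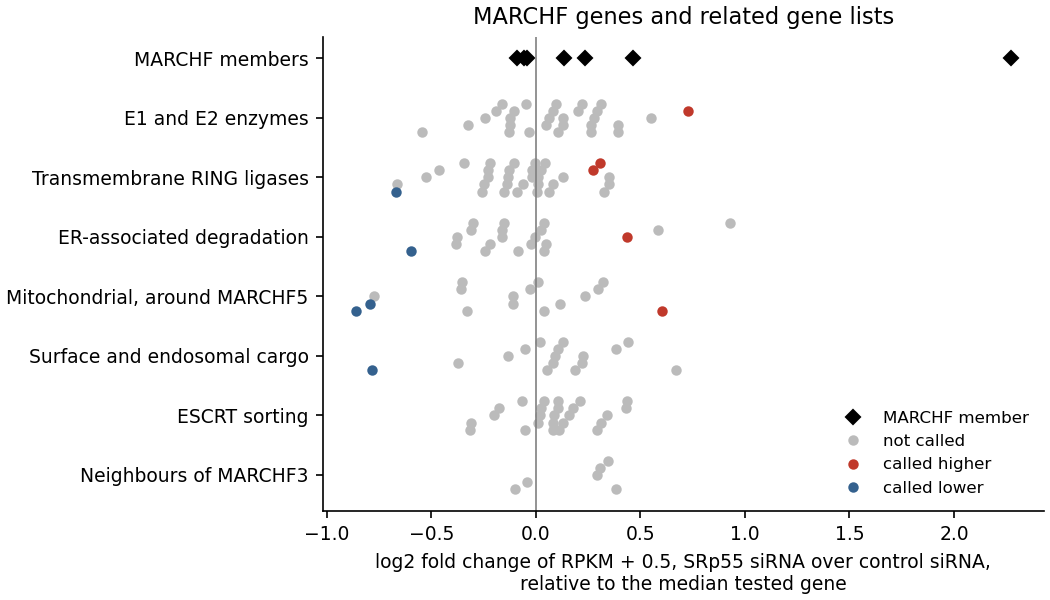
Log2 fold changes (RPKM + 0.5, SRp55 siRNA over control siRNA, relative to the median tested gene) of the 7 MARCHF genes (diamonds) and of the tested genes of 7 related lists (dots, red called higher and blue called lower at limma adjusted p under 0.05). MARCHF3, which was chosen on this contrast, is at 2.27, and each of the 7 lists has genes on both sides of 0.

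Of the tested genes within 500 kb of MARCHF3, 0 of 6 were called by limma, against 5.02% of all tested genes. An unadjusted p under 0.05 was found for 4 of the 6, against 21.9% of all tested genes, and their median log2 fold change was 0.30. LMNB1, which encodes lamin B1, was at 108 ± 14.3 RPKM after SRp55 siRNA and 78.8 ± 12.7 RPKM in controls (log2 fold change 0.34, limma adjusted p = 0.10), and GRAMD2B at 26.6 ± 4.02 and 19.98 ± 1.76 RPKM in SRp55 siRNA and control libraries (0.29, limma adjusted p = 0.083; SD, n = 5). Both were called higher with the replicate block (limma adjusted p = 0.014 and 0.025). C5orf63, PHAX, ALDH7A1 and PRRC1 were at log2 fold changes of 0.38, 0.30, -0.04 and -0.10 and were not called in either fit. MARCHF3 was at 2.27, with 98.1% of its RPKM difference in its short transcript. Since it was chosen on this contrast, it is not ranked against these 6.

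The genes most like MARCHF3 across the 10 libraries were named by the smallest root mean square difference of standardized log2 values among 11430 genes of at least 2 RPKM. They were TUBA1A, an alpha-tubulin, at 0.18, ZNF530, a zinc finger protein, at 0.25, DTL, a substrate receptor of the CUL4 ubiquitin ligase, at 0.25, SOX11, a transcription factor of neural development, at 0.25, AMMECR1 at 0.27 and NEDD4, a HECT-type ubiquitin ligase of membrane proteins, at 0.27. TUBA1A was at 1163, 1059, 1145, 1151 and 1071 RPKM in SRp55 siRNA replicates 1 to 5, against 529, 621, 634, 757 and 503 RPKM in control replicates 1 to 5, with control replicate 4 the highest control as in MARCHF3. NEDD4 was at 8.75 ± 1.10 RPKM after SRp55 siRNA and 3.44 ± 0.466 RPKM in controls (SD, n = 5). Within the family MARCHF5 was at 0.48 and rank 242, and MARCHF9 at 1.30 and rank 7205. The measure runs over both groups, so it follows the contrast on which MARCHF3 was chosen, and it is given as a description.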

How the data were processed

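The members and the gene lists were chosen with earlier results of these data known. TopHat alignment to GRCh37 (hg19) is named in the submitters' processing notes. Its version, the read assignment program, the annotation release and strand use are not given in the sources. The authors deposited, for each library, estimated reads and RPKM for 155130 transcripts of 26346 genes in 1 text field. The RPKM route was therefore used, and estimated reads per M (10 to the power 6) assigned reads served as an alternative. Replicate p-values measure the spread between preparations of 1 cell line.

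Gene values were sums of transcript RPKM. Genes and transcripts averaging 0.5 RPKM or more were fitted as log2(RPKM + 0.5) in limma 3.58.1 (R 4.3.3; trend, robust), with Benjamini-Hochberg adjustment over all features tested at 0.05. This pseudocount understates the change of low genes. The median tested gene stood at 0.11 on the log2 scale, and at 0.01 with median-of-ratios scaling, so log2 fold changes are relative to that median, while p-values test the deposited scale. Transcript usage was tested with limma's diffSplice over transcripts of at least 0.5 RPKM and 5% usage, and a call also needed a shift of 10 percentage points.

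Symbols (95.0% of genes), biotypes (92.4% of transcripts), exons and sequences came from GENCODE 44 by Ensembl ID. Named genes were SRSF6, the MARCHF genes, up to 4 called genes per list, tested neighbours within 500 kb, and the 6 genes most like MARCHF3. Libraries of equal number deviated together (r of 0.13 to 0.41, at most 0.12 for different numbers), so the numbers were taken as pairs in an alternative fit with the replicate number as a block. Alternatives also varied the pseudocount, the filter, the scaling, the transcripts summed and the libraries. MARCHF3 without its short transcript, and its full-length transcript alone, were added after seeing the data.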

Additional observations from a re-analysis of the deposited data

Results flagged for a closer look

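In 6 of 86 groups of 5 values, 1 library stood apart from the other 4 by Dixon's criterion. For normally distributed values, chance gives about 1 in 20 groups. That rate does not hold for transcripts with libraries at 0, where any value beside 4 zeros stands apart. SRSF6 was at 92.4 RPKM in control replicate 3, below the other controls at 99.5 to 100.0 RPKM. For MARCHF2 ENST00000601724, SRp55 siRNA replicate 1 was at 0.196 RPKM with the others at 0, and control replicate 2 at 5.97 RPKM with the others at 0.0206 to 0.851 RPKM. For MARCHF6 ENST00000274140, the long coding transcript, control replicate 2 was at 3.82 RPKM with the other controls at 12.9 to 15.9 RPKM. For MARCHF6 ENST00000503788, SRp55 siRNA replicate 1 was at 1.85 RPKM with the others at or under 0.518 RPKM, and control replicate 4 at 4.35 RPKM with the others at or under 0.775 RPKM.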

How the results depend on the processing

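With 684 genes called, the count was 1784 with the replicate block, 2340 on estimated reads and 259 to 1083 with 1 library left out. Transcripts called, 48 in all, numbered 18 with no filter on low values, 2 with the replicate block, 202 on estimated reads and 12 to 47 with 1 library left out. Genes called for usage, 34 in all, numbered 60 with no filter, 52 on estimated reads and 24 to 52 with 1 library left out. The 5 list genes called higher became 2 with no filter, 17 with the replicate block, 10 on estimated reads and 0 to 9 with 1 library left out. The 5 called lower became 8 with median-of-ratios scaling, 8 with the replicate block, 20 on estimated reads and 1 to 5 with 1 library left out. Fewer samples entered each fit with a library left out, and the cause of the other changes was not tested. MARCHF3, at 2.27, was at 1.22 on estimated reads, 2.79 with protein-coding transcripts only, 0.022 without its short transcript, -0.51 for the full-length transcript alone and 2.13 to 2.50 with 1 library left out. MARCHF5 was at 0.21 with protein-coding transcripts only and 0.41 to 0.51 with 1 library left out. MARCHF2, MARCHF6, MARCHF7, MARCHF8 and MARCHF9 stayed uncalled under each of 18 alternatives. Of 17 called genes named outside the family, 7 were called under every alternative and none changed sign with a call. These 7 include SRSF6, the siRNA target, and TUBA1A, DTL, SOX11, AMMECR1 and NEDD4. The latter were named for a pattern like that of MARCHF3, so their calls follow the contrast on which MARCHF3 was chosen. GDAP1 was the only gene of the related lists among the 7. The low level of full-length MARCHF3, at 171 to 278 estimated reads after SRp55 siRNA and 208 to 652 in controls, limits how finely its share can be read.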
